A study of Mus musculus with 8 samples.

Results

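The nuclei described here carried RNA of Baiap3 and Resp18 together, 2 genes of the secretory pathway of neurons that release peptides. They were chosen by a count rule: a barcode was kept with at least 1000 unique molecular identifiers (UMIs, one per captured RNA molecule), at least 300 genes and at most 5% of UMIs from mitochondrial genes, and then with at least 2 UMIs of Baiap3 and 1 of Resp18. It also had at most 1 UMI of the cortical glutamate transporter gene Slc17a7, at most 2 of the striatal genes Ppp1r1b and Rgs9 together, and 0 of Mog, Aqp4, Cx3cr1 and Pdgfra, which mark glia. Of 44762 nuclei that passed the first 3 limits, 483 met the rule, which is 1.08%, and these are called members below.

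The tissue was a small block of forebrain beside the lesion of 10-week-old Swiss Webster mice, all male. The 4 groups underwent control surgery, BCAS surgery, traumatic brain injury (TBI) surgery or both (BCAS+TBI), with 2 single-nucleus libraries each. No genetic change is named for any group, and the study title asks whether low cerebral blood flow worsens the injury. The labels give BCAS as an abbreviation, call the 2 libraries of a group biological replicates, and give no time after surgery.

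Peptide neurons make their transmitter as a precursor protein, pack it into dense-core vesicles, and cut it to the active peptide inside the vesicle. Baiap3 belongs to the Munc13 family of vesicle-docking proteins and is known for the trafficking of dense-core vesicles, and Resp18 is a small protein of the secretory pathway of endocrine and peptide-making cells. Granins such as Scg2 fill the same vesicles, and neurons of the hypothalamus, amygdala and other deep forebrain regions are especially rich in them. Such neurons also release a fast transmitter, either GABA (made by Gad1 and Gad2, loaded by Slc32a1) or glutamate (loaded by Slc17a6 in most subcortical neurons). On mouse build GRCm38, Baiap3 lies on chromosome 17 at chr17:25242659-25256364 and Resp18 on chromosome 1 at chr1:75272199-75278415, both on the minus strand.

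Total UMIs per library ran from 28118725 to 56135192 and fell into 2 sets at the widest gap. Depth set 1 held control 1, BCAS 1, TBI 1 and BCAS+TBI 2, and depth set 2 the other 4 libraries, so that each set had 1 library of every group. Between the sets 1183 of 8121 genes differed in the summed members (14.6%, edgeR quasi-likelihood test, adjusted p under 0.05). No label names these sets. Across libraries 217 barcodes recurred among the nuclei passing the first limits, and 0 of them were members. Members had a median of 6210 UMIs against 5183 in all nuclei, and the median per library ran from 4255 (BCAS+TBI 2) to 9555 (control 2). Doublet scoring marked 15 of the 483 members.

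The label of peptide-making neurons was first held against genes the rule did not use. Scg2, which encodes secretogranin 2, reached 358 CPM (UMIs of the gene over all UMIs of the nuclei, on the CPM scale of sequencing counts) in the members and 104 CPM in all nuclei. It had at least 1 UMI in 76.6% of members (95% Wilson interval 72.6 to 80.2, which like every interval here covers counting error only) and in 10.99% of oligodendrocyte nuclei, which should lack it and had a median of 2094 UMIs. By library the share of members with Scg2 ran from 66.7% (BCAS 1) to 88.1% (control 2). Scn9a, the sodium channel Nav1.7 of sensory and neuroendocrine neurons, reached 215 CPM against 73.9 CPM in all nuclei. Both genes came with the label, which was drawn from these data, so their levels describe the members and are not independent evidence for the name. The marker lists of cortical excitatory and striatal neurons overlap the gate and so check little. The first, which holds Slc17a7, summed to 34.5 CPM in members, 33.4 CPM in other GABA nuclei and 97.7 CPM in other Slc17a6 nuclei, 2 classes defined below. The striatal list of 7 genes, which holds Ppp1r1b and Rgs9, summed to 670 CPM in members against 764 and 879 CPM, with Adora2a at 0.

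The count limits cut through a continuum. Just outside, 784 nuclei had 1 UMI of Baiap3 and at least 1 of Resp18, with Scg2 at 366 CPM, and 302 had at least 2 of Baiap3 but 0 of Resp18, with Scg2 at 214 CPM. Just inside, 304 members had exactly 2 UMIs of Baiap3, with Scg2 at 354 CPM. Hap1, a gene named below, was at 176 CPM in each of the 2 sets just outside and at 185 CPM in those 304 members. Its level was thus not particular to nuclei that met the rule. A further 312 nuclei met the Baiap3 and Resp18 limits but not the others, with a median of 13281 UMIs and Scg2 at 116 CPM.

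GABA and glutamate nuclei were about equally common among the members. At least 1 UMI of Gad1 or Gad2 was present in 205 members (42.4%) and at least 1 of Slc17a6 in 227 (47.0%). Both were present in 40 members (8.28%), and 91 (18.8%) had neither. A stricter rule called a nucleus GABA-type with at least 2 Gad1 and Gad2 UMIs and at least 5 times as many of them as of Slc17a6, and Slc17a6-type the other way round. It gave 119 GABA-type and 122 Slc17a6-type members, 9 mixed ones with a median of 14028 UMIs, and 233 unresolved ones with a median of 5482 UMIs. Slc32a1, the vesicular GABA transporter gene that the rule did not use, was found in 55.5% of GABA-type members and 5.74% of Slc17a6-type members. Slc17a8, the third vesicular glutamate transporter gene, was found in 2 members.

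The 2 classes were then set against nuclei of the same transmitter with 0 UMIs of Baiap3 and of Resp18, called other GABA nuclei (2661) and other Slc17a6 nuclei (1204). UMIs were summed per library and class and compared within libraries, leaving out BCAS 1, where a class had under 10 nuclei. This left 7 libraries, with 111 GABA-type and 113 Slc17a6-type members against 2420 and 1109 other nuclei. Median depths were 6820 UMIs in GABA-type members, 6881.5 in Slc17a6-type members, 5946 in other GABA nuclei and 6989.5 in other Slc17a6 nuclei.

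Before the peptide values, 6 short promoter stretches are printed, chosen because each holds the same 8 letters, in 5 secretory genes described here and in Zdbf2. Most genes of those lists lack them, as counted below. Each is 60 bases from the 300-base RefSeq promoter window (250 bases before to 50 after the transcription start, GRCm38.p6), read 5′ to 3′ on the strand of the gene, and the capitals mark TGACGTCA, the full cyclic-AMP response element (its own reverse complement, so a match counts on both strands). The genes encode a granin (Scg2 and Chgb), a prohormone-cutting enzyme (Pcsk1), a peptide (Sst and Cartpt) and an imprinted zinc-finger protein (Zdbf2).
Scg2 (chr1:79440061-79440120, minus strand): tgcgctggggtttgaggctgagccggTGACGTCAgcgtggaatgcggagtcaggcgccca
Chgb (chr2:132781544-132781603, plus strand): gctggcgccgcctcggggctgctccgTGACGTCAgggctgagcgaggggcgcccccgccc
Pcsk1 (chr13:75089753-75089812, plus strand): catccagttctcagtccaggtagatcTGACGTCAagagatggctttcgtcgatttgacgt
Sst (chr16:23890859-23890918, minus strand): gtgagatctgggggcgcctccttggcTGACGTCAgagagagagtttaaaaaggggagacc
Cartpt (chr13:99900762-99900821, minus strand): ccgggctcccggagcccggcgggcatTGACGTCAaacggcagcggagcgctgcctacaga
Zdbf2 (chr1:63273184-63273243, plus strand): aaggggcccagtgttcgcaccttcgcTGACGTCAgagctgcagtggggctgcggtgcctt
The 8 letters began 48 (Sst) to 112 (Cartpt) bases before the start. They were present in 1.79% of all 32851 promoter windows and for 2.03% of the 27025 genes with a window. Among the lists used here they were present for 3 of 15 granin and dense-core vesicle genes with a window (Scg2, Chgb, Pcsk1), 3 of 39 neuropeptide genes (Sst, Cartpt, Ucn) and 4 of 21 imprinted genes (Peg3, Meg3, Usp29, Zdbf2). Peg3 and Usp29 lie head to head and share that match. None of the 10 gate and class genes with a window held the letters. A match is a match of letters and was not linked to any measured binding.

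Of 49 neuropeptide genes on the list, 42 had at least 1 UMI in the members. The 7 others (Nms, Kiss1, Ucn3, Npff, Nps, Gcg and Nppa) had 0 of 483 members, which allows a share of up to 0.621% of nuclei with a UMI. Some peptide UMI was present in 395 members (81.8%), with a median of 1 UMI-positive peptide gene per member. Most of those were single molecules. At least 3 UMIs of 1 peptide gene were present in 105 members (21.7%), in 20.1% of the other GABA and Slc17a6 nuclei pooled, and in 1.18% of oligodendrocyte nuclei. The first 2 shares lay close together at a like depth (medians of 6210 and 6232 UMIs), but the pooled nuclei were mostly GABA nuclei and were not matched to members by class. By library that share ran from 11.5% of members (BCAS 2) to 33.3% (BCAS 1).

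**Figure D1:**
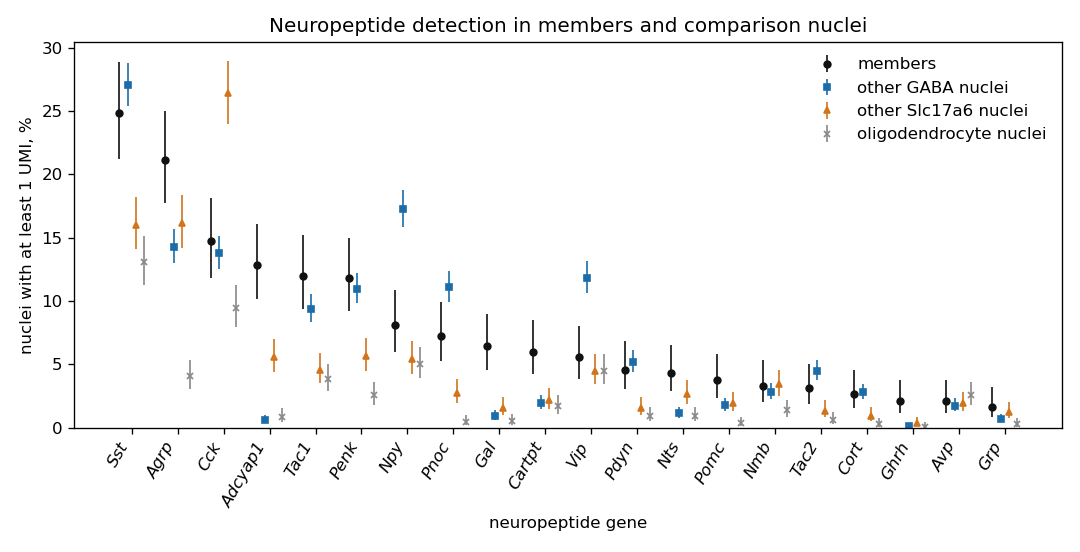
Share of nuclei with at least 1 UMI (vertical axis, %) for the 20 neuropeptide genes found in most members (horizontal axis), in members, other GABA nuclei, other Slc17a6 nuclei and oligodendrocyte nuclei; bars are 95% Wilson intervals, pooled over libraries. Adcyap1, Gal, Nts and Cartpt lie higher in members than in either comparison class, while Sst and Npy do not lie above other GABA nuclei.

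A few nuclei held most of the peptide RNA. In 34 members (7.04%) a single peptide gene had at least 10 UMIs. The peptide genes at that level in these nuclei made 51.5% of the 2618 peptide UMIs of all members, without their other peptide UMIs. At least 10 UMIs of a peptide gene were also found in 228 of the 3865 other GABA and Slc17a6 nuclei (5.90%), a difference that was not tested. Those of the members covered 13 peptide genes. Pmch, which encodes the feeding and sleep peptide MCH of the lateral hypothalamus, had 105, 69 and 165 UMIs in 3 nuclei, from control 2, TBI 2 and BCAS+TBI 1, and these made 98.8% of its member UMIs. Hcrt, the gene of orexin and like Pmch a marker of the lateral hypothalamus, had 74, 26 and 18 UMIs in 3 nuclei, from BCAS 1, TBI 2 and BCAS+TBI 2. The first of those carried a high doublet score, as did 3 other peptide-rich members, one each of Sst, Vip and Nts. Avp, the vasopressin gene, had 55 UMIs in 1 nucleus of TBI 2. Pmch and Hcrt were not found at that level in the same nucleus.

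Other peptide-rich members had pairs of peptides. Sst, the somatostatin gene, had at least 10 UMIs in 11 members, and Npy, the neuropeptide Y gene, in 6. In 4 nuclei both did: 66 of Sst with 45 of Npy and 71 with 16 in control 1, 65 with 23 in control 2, and 40 with 32 in TBI 1. Vip, a peptide of cortical interneurons and of the suprachiasmatic nucleus, had 22, 77, 47 and 22 UMIs in 4 nuclei of control 2, BCAS 1, BCAS 2 and TBI 2. The BCAS 2 nucleus also held 14 UMIs of Penk, the enkephalin precursor. Agrp, the hunger peptide of the arcuate nucleus, had 12 UMIs beside 10 of Npy in 1 nucleus of BCAS+TBI 2. Ghrh, which drives growth hormone release, had 11 UMIs beside 3 of Gal in 1 nucleus of BCAS+TBI 1. Several pairs are known from single types of hypothalamic or cortical neurons, and here each rests on 1 to 4 nuclei.

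**Figure D2:**
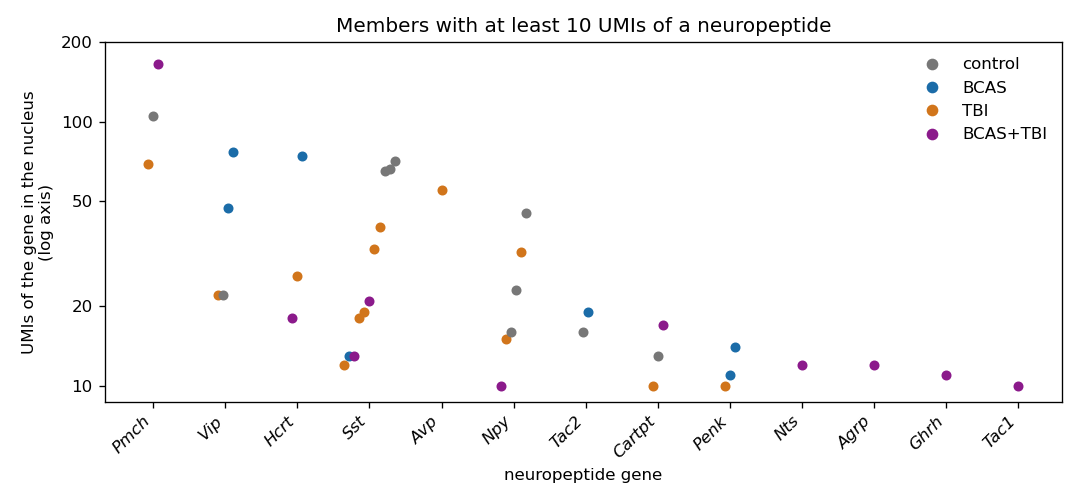
UMIs of a peptide gene in each member with at least 10 of them (vertical axis, logarithmic), by peptide gene (horizontal axis) and coloured by group; a nucleus rich in 2 peptides is drawn under both. Pmch reaches 165 UMIs in 1 nucleus, and every group holds some of the 34 nuclei.

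Some peptides were spread over more nuclei. Adcyap1, the PACAP gene, was found in 26.2% of Slc17a6-type members (Wilson interval 19.2 to 34.7) and 0.84% of GABA-type members, against 5.56% of other Slc17a6 nuclei (4.41 to 7.01). Thinned to 2000 UMIs per nucleus it was in 4.59% of all members and 0.694% of the other nuclei. Here and below, thinned other nuclei are the GABA and Slc17a6 nuclei pooled (2661 and 1204 before thinning). Their class mix is unlike that of the members (119 and 122), so the thinned shares are not matched by class. Gal, the galanin gene, was found in 6.42% of members (4.56 to 8.97), 0.939% of other GABA nuclei and 1.58% of other Slc17a6 nuclei, and in 3.55% of members against 0.534% of other nuclei after thinning. Nts (neurotensin) was in 4.35% of members, 1.13% of other GABA and 2.66% of other Slc17a6 nuclei. Cartpt, a feeding-related peptide, was in 6.0% of members, 1.95% and 2.16%. Gal, Nts and Cartpt were not called between GABA-type and Slc17a6-type members (16 against 8, 25 against 15 and 16 against 15 UMIs, edgeR adjusted p = 0.999 each).

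Sst behaved differently. It was found in 24.8% of members and 27.1% of other GABA nuclei, and 65.0% of its positive members held 1 UMI. In oligodendrocyte nuclei, which do not make it, 13.1% had a UMI, and after thinning the shares were 12.7% in members, 13.7% in other nuclei and 7.21% in oligodendrocyte nuclei. The source of the single Sst UMIs was not tested. Agrp was found in 21.1% of members but 86.3% of those held 1 UMI, and its shares after thinning were 7.52%, 5.58% and 3.69%.

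Few peptide genes passed the filter on low counts (0, 9 and 2 of 49 in the 3 class comparisons), so their tests come from the fit without it, adjusted over all genes with a UMI. Within libraries, Slc17a6-type members had Adcyap1 at 47.3 ± 21.7 CPM (SD, n = 7) and other Slc17a6 nuclei at 7.69 ± 2.56 CPM, higher in 7 of 7 libraries (log2 fold change 2.17 ± 0.35 SE, edgeR adjusted p = 5.38e-08). Tac1, the substance P gene, was at 63.9 ± 65.7 against 8.91 ± 3.23 CPM and higher in 5 of 7 (2.13 ± 0.34, adjusted p = 2.42e-08). Penk was higher in 4 of 7 and Cartpt in 5 of 7, and the call for Hcrt rested on 1 library. In all, 5 of 41 peptide genes were higher and 0 lower, where 7% of all genes were called (1.41% higher, 5.58% lower).

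GABA-type members differed from other GABA nuclei by other peptides. Gal was at 22.3 ± 23.8 against 1.91 ± 1.07 CPM and higher in 4 of 7 libraries, the other 3 having no Gal UMI in this class (log2 fold change 2.97 ± 0.66, edgeR adjusted p = 0.000374). Cck, the cholecystokinin gene of many cortical interneurons, was at 12.9 ± 16.6 against 44.6 ± 23.0 CPM and lower in 7 of 7 (-2.32 ± 0.43, adjusted p = 8.15e-06). In this comparison 4 of 42 peptide genes were higher (Gal, Nts, Ghrh, Pmch) and 3 lower (Cck, Vip, Sst), where 4.01% of all genes were called (0.767% higher, 3.24% lower). The calls for Nts, Ghrh and Pmch rested on 2 or 3 libraries with a UMI. Vip had a UMI in 3 libraries, was higher in members in those 3, and was called lower. Sst was higher in 1 of 7. For Sst the mean over libraries went the other way (373 against 238 CPM), through control 1 at 1747 against 294 CPM.

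Between the classes themselves, Pnoc, the nociceptin precursor, was at 29.6 ± 23.3 CPM in GABA-type and 1.16 ± 3.06 CPM in Slc17a6-type members, with 22 against 1 UMIs, and higher in 7 of 7 libraries (edgeR adjusted p = 0.0191 without a filter). Adcyap1 was the one peptide gene of 32 that was lower in GABA-type members, and 5 were higher (Sst, Npy, Vip, Pnoc, Pmch), where 0.476% of all genes were called (0.245% higher, 0.231% lower). The Pmch and Vip UMIs of GABA-type members lay in 2 and 3 libraries, nearly all in the peptide-rich nuclei above.

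The list of vesicle genes held granins, prohormone-cutting enzymes and docking factors. Between GABA-type and Slc17a6-type members 15 of them were tested, 2 were lower in GABA-type (Scg2 and Pcsk2), 0 higher and 13 not called, where 0.838% of all genes were lower. Scg2 was at 309, 527 and 748 CPM (lowest, median, highest of 7 libraries) in Slc17a6-type members, and at 79.7, 120 and 223 CPM in other Slc17a6 nuclei. The ranges did not overlap, and the difference held in 7 of 7 libraries (log2 fold change 1.98 ± 0.13, edgeR adjusted p = 6.34e-12). In GABA-type members it was at 132, 237 and 383 CPM against 117, 145 and 278 CPM, and did not pass (0.41 ± 0.14, adjusted p = 0.0679). Slc17a6-type members had more Scg2 than GABA-type ones in 7 of 7 libraries (difference GABA-type minus Slc17a6-type -1.10 ± 0.15, adjusted p = 0.000229).

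Of 18 vesicle genes tested in Slc17a6-type members, 8 were higher and 2 lower than in other Slc17a6 nuclei, with a median log2 fold change of 0.51 against 0.033 over all genes. In that comparison 1231 of 5745 genes were called (21.4%), 10.3% higher and 11.1% lower. The 8 were Scg2, Cadps2 and Rab27b (vesicle priming and docking, 1.23 and 0.96), Pcsk1n (an inhibitor of Pcsk1, 0.98), Scg3 (0.85), Syt4 (0.79), Pam (which amidates peptides, 0.64) and Ptprn (0.61). Pcsk2, a second prohormone-cutting enzyme, was lower at 494 against 842 CPM in the median library (-0.94 ± 0.14, adjusted p = 6.6e-06), as was Cadps (-0.54). Chga, Chgb, Vgf, Cpe and Scg5 did not pass.

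In GABA-type against other GABA nuclei, of 18 genes tested, 2 were higher (Syt4, 0.69, and Cadps2, 0.58) and 1 lower (Cadps, -0.62), with a median log2 fold change of 0.0051 against 0.013 over all genes. In that comparison 733 of 7282 genes were called (10.1%), 4.09% higher and 5.97% lower. Whether these 2 changes of the list differ was not tested. Pcsk2 was lower in GABA-type than in Slc17a6-type members (-0.95 ± 0.18, adjusted p = 0.00569). Unc13c, a Munc13 relative of Baiap3, was too (-1.26 ± 0.30, adjusted p = 0.0366), but without any 1 of 5 libraries (control 2, BCAS 2, TBI 1, TBI 2 or BCAS+TBI 1) it no longer passed (highest adjusted p = 0.176).

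Imprinted genes are expressed from 1 parental copy, and many are active in hypothalamic neurons. Some passed as higher in members, and most did not pass. In GABA-type members 6 of 19 tested were higher and 0 lower, and in Slc17a6-type members 9 of 19 were higher and 0 lower, beside the 4.09% and 10.3% of all genes given above. Their median log2 fold changes were 0.16 and 0.23.

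Zim1, a zinc-finger gene expressed from the maternal copy, was at 23.8, 62.4 and 116 CPM in GABA-type members and 3.94, 10.9 and 13.5 CPM in other GABA nuclei, with no overlap (2.29 ± 0.33, edgeR adjusted p = 2.52e-05, 7 of 7 libraries). In Slc17a6-type members it was at 44.4, 63.5 and 83.6 against 7.91, 12.2 and 17.9 CPM, again apart (2.47 ± 0.27, adjusted p = 7.93e-08, 7 of 7). Zdbf2, which in mice influences feeding and growth, was at 93.2, 105 and 206 CPM in GABA-type members against 34.2, 40.6 and 48.4 CPM (1.54 ± 0.21, adjusted p = 1.2e-05) and at 97.3, 135 and 183 against 34.8, 43.7 and 61.9 CPM in the Slc17a6 classes (1.57 ± 0.18, adjusted p = 1.13e-07). The shift in Zdbf2 had nearly the same size in both classes.

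Usp29, Gnas (the stimulatory G protein), Grb10 (an adaptor of insulin signalling) and Nnat (neuronatin) completed the group called in both. Usp29 rose by 0.89 and 1.14 on the log2 scale in GABA-type and Slc17a6-type members, Gnas by 0.81 and 0.78, and Grb10 by 1.17 and 0.66. Nnat was at 168 CPM in the median library of Slc17a6-type members against 50.7 CPM (2.16 ± 0.16, adjusted p = 5.9e-11) and at 92.8 against 45.6 CPM in the GABA classes (0.65 ± 0.20, adjusted p = 0.0381). It was also the one imprinted gene of 17 that differed between GABA-type and Slc17a6-type members (-1.18 ± 0.20, adjusted p = 0.00277). Sgce, Nap1l5 and Impact passed in the Slc17a6 classes alone, without a test of the difference. Peg3, Meg3, Snrpn and Rian did not pass in either, and Peg3 was higher in members in 2 of 7 and 1 of 7 libraries.

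**Figure D3:**
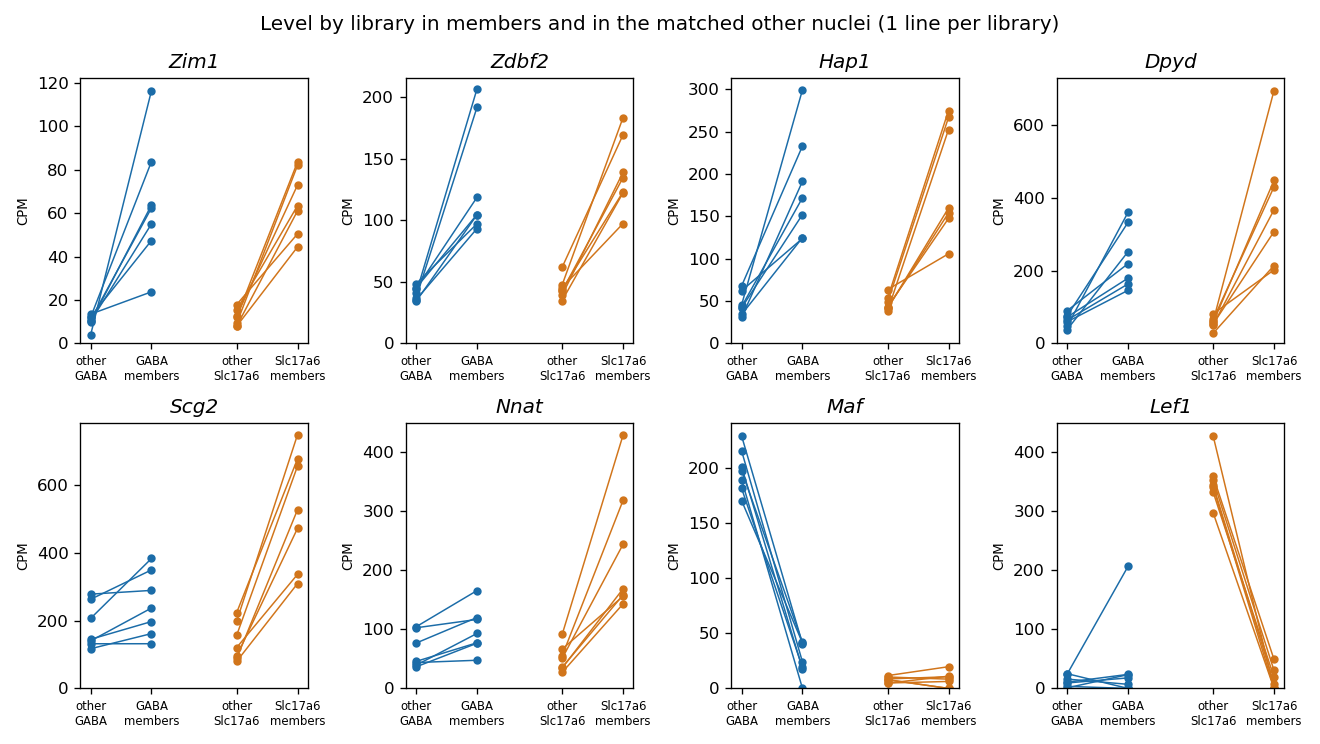
Level (CPM, axis from 0) of 8 genes in other nuclei and in members of the same library, joined by a line, for the GABA classes (blue) and the Slc17a6 classes (orange), 7 libraries each. Zim1, Zdbf2, Hap1 and Dpyd rise from other nuclei to members along every line in both classes, Scg2 and Nnat rise more in the Slc17a6 classes, Maf falls in the GABA classes and Lef1 in the Slc17a6 classes. For Lef1 only a lower call was open.

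Beyond these lists, Zim1, Hap1, Dpyd and Efcab1 were among the 10 genes with the highest fold changes in both comparisons. Hap1, which encodes the huntingtin-associated protein of neuronal transport and is abundant in the hypothalamus, was at 185 ± 63.3 CPM (SD, n = 7) in GABA-type members and 46.6 ± 13.8 CPM in other GABA nuclei (1.99 ± 0.19, adjusted p = 8.05e-08). In the Slc17a6 classes it was at 194 ± 68.2 and 47.3 ± 8.79 CPM (2.02 ± 0.19, adjusted p = 3.65e-09). Dpyd, the enzyme that breaks down uracil, was higher by 1.89 and 2.72, Efcab1 by 2.18 and 2.08. Each was higher in members in 7 of 7 libraries of both comparisons. Ecel1, a peptidase-like protein of neurons (2.29), Tshz2, a transcription factor (1.74), Glra3, a glycine receptor subunit (1.82) and the noncoding RNA Rmst (1.83) were among the 10 with the highest changes in GABA-type members. Nek10 (3.13), Rerg (2.23), Gda (2.20), Dnah7a (2.16) and Dchs2 (2.00) were among those of Slc17a6-type members.

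The genes with the lowest fold changes in GABA-type members included Maf and several ion channel genes. Maf, a transcription factor of interneurons from the medial ganglionic eminence, was at 26.3 ± 15.7 CPM in GABA-type members and 197 ± 19.9 CPM in other GABA nuclei, lower in 7 of 7 libraries (-2.88 ± 0.23, adjusted p = 5.76e-09). Kcnc2 and Adarb2 were lower by 1.51 and 1.49 on the log2 scale. Pvalb, the calcium buffer of fast-spiking interneurons, had 0 UMIs in GABA-type members against 505 in other GABA nuclei, and was at least 9.31-fold lower against the floor of 3 UMIs over the class. The potassium channel gene Kcns3 likewise had 0 against 861 UMIs and was at least 15.9-fold lower. Both passed the filter through the other nuclei alone. Kcna1 (-3.09), Syt2 (-3.09), Igf1 (-3.96), Pla2g3 (-2.99), Ndnf (-2.95), Pde5a (-2.86), Igsf11 and Tmem44 (both -2.83) made up the rest of the 10 lowest. Of 6 interneuron markers 3 were lower (Kcnc2, Adarb2 and Pvalb, the last at 0 UMIs) and 0 higher, where 5.97% of all genes were lower. Against other Slc17a6 nuclei, 3 of the 3 tested were lower in Slc17a6-type members (Kcnc2, Adarb2 and Prox1), where 11.1% were. Pvalb and Prox1 passed the filter through the other nuclei alone and could only be called lower, so they add nothing to these counts.

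Among the genes with the lowest fold changes in Slc17a6-type members, Lef1 was at 15.2 ± 18.9 CPM against 350 ± 39.3 CPM (-4.26 ± 0.29, edgeR adjusted p = 7.77e-12). Tcf7l2, like Lef1 a transcription factor of Wnt signalling and also a regulator of thalamic neurons, was at 130 against 499 CPM (-1.90 ± 0.19). Plekhg1 was lower by 5.44, Mctp2 by 4.36 and Lhfp by 3.73 on the log2 scale. Prkcd, which marks first-order thalamic relay neurons, had 1 UMI in Slc17a6-type members against 1223 in other Slc17a6 nuclei, Gabrd 1 against 437, Fam19a4 3 against 556 and Prox1 4 against 763. Cnksr3 and Mrvi1 had 0 UMIs and were at least 21.3-fold and 15.6-fold lower. Prkcd, Gabrd, Fam19a4, Prox1, Cnksr3 and Mrvi1 all passed the filter through the other nuclei alone. So did Lef1, at 15.2 ± 18.9 CPM in the members. Only a lower call was thus open to these genes. Levels of Plekhg1, Mctp2 and Lhfp in members are not given here, and the same limit may hold for them. Where in the tissue block the members lay was not measured.

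Receptors for circulating hormones were among the genes that moved in both classes. Prlr, the prolactin receptor, was higher by 1.80 ± 0.31 (adjusted p = 0.000275) and 1.29 ± 0.24 (adjusted p = 0.000181) in GABA-type and Slc17a6-type members, and Ghr, the growth hormone receptor, by 0.96 and 1.10. The thyroid hormone receptor gene Thrb was lower in both (-1.10 and -0.48). Of 10 hormone receptor genes tested, 2 were higher and 2 lower in GABA-type members, where 4.09% and 5.97% of all genes were, and 3 were higher and 3 lower in Slc17a6-type members, where 10.3% and 11.1% were. Oprm1, the mu opioid receptor, was higher in both (0.88 and 0.58). Hcrtr2, the second orexin receptor, and Adcyap1r1, the PACAP receptor, were higher in Slc17a6-type members (1.04 and 0.90), while Vipr2 had 2 against 409 UMIs there. Htr2c, the serotonin receptor that is also a choroid plexus marker, was higher in both (1.09 and 0.87). The choroid list (Ttr, Folr1, Htr2c) summed to 360 to 725 CPM in members by library and to 316 CPM in other GABA nuclei. Gap43, a growth-cone protein, was higher by 1.45 and 0.69, and the chaperone Hspa5 by 0.56 and 0.85.

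Of 9 regulators of transcription tested between the classes, 1 was higher in GABA-type members (Meis2) and 8 were not called. Against other GABA nuclei 5 of 18 were higher and 1 lower in GABA-type members (4.09% and 5.97% of all genes). Zfhx3, a regulator of suprachiasmatic and striatal neurons, was at 603 against 174 CPM in GABA-type members (1.71 ± 0.17, adjusted p = 9.25e-08), and Tcf7l2 and Zfhx4 were higher with it (1.24 and 0.95), while Dlx6os1 was lower (-1.34). In Slc17a6-type members 1 of 16 regulators was higher (Ebf3, 0.75) and 7 were lower, among them Zic1 and Foxp2, where 10.3% and 11.1% of all genes were. Some of these 16 may have been open to a lower call alone. By single UMIs, Sim1, which specifies the paraventricular and supraoptic nuclei, was found in 12.3% of Slc17a6-type members, 0 of 119 GABA-type members and 4.40% of other Slc17a6 nuclei. Lmx1a, a midbrain and posterior hypothalamic factor, was in 15.6% and 1.68%. Isl1, of arcuate and striatal neurons, was in 15.1% of GABA-type members, 2.46% of Slc17a6-type members and 3.68% of other GABA nuclei.

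Direct comparison of the classes called 35 of 2387 genes (1.47%), 15 higher in GABA-type (0.628%) and 20 higher in Slc17a6-type members (0.838%). GABA-type members had more Nrxn3, a synaptic adhesion protein, at 6802 ± 1794 CPM against 1316 ± 440 CPM (2.39 ± 0.11, adjusted p = 5.15e-11), more of the transcription factors Sox6 (2.43), Meis2 (1.92) and Tcf4 (1.15), and more Sox2ot (2.32), Kcnmb2 (1.69), Htr1f (1.34), Cacna2d3 (1.32), Grik3 (1.21) and Plcl1 (0.94). The calls for Plcl1, Sox2ot and Tcf4 were lost in 6, 4 and 1 of their alternatives. Slc17a6-type members had more Cacna2d1, another calcium channel subunit, at 1087 ± 220 CPM against 216 ± 148 CPM (-2.35 ± 0.23, adjusted p = 2.84e-06), and more Tmem163 (-2.38), Rmst (-1.495), Ntng1 (-1.44), Fam19a1 (-1.41), Klhl1 (-1.34) and Arhgap24 (-1.10). The sign is GABA-type minus Slc17a6-type throughout.

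Monoamine genes appeared in few members. Slc18a2, which loads dopamine and other monoamines into vesicles, was found in 9.11% of members against 3.53% of other GABA and 3.16% of other Slc17a6 nuclei. Ddc was in 10.8% against 2.07% and 2.57%, but also in 6.0% of oligodendrocyte nuclei. Slc18a2 and Slc6a3, the dopamine transporter gene, occurred together in 6 members from 4 libraries and in 0 of the other GABA and Slc17a6 nuclei, but in 100 of all 44762 nuclei. Tph2 and Slc6a4, the pair of serotonin neurons, occurred together in 1 member. Chat and Slc5a7 of cholinergic neurons did so in 0 members.

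Surgery was examined first by how many nuclei met the rule. Members made 1.44% of nuclei in control 1 (Wilson interval 1.15 to 1.81), 1.05% in control 2, 0.894% in BCAS 1, 0.964% in BCAS 2, 0.953% in TBI 1, 1.13% in TBI 2, 1.09% in BCAS+TBI 1 and 1.13% in BCAS+TBI 2. Control 1 was the highest, and the other 7 libraries ran from 0.894% to 1.13%. The 4 libraries with TBI surgery averaged 1.07% ± 0.0827 (SD, n = 4) and the 4 without 1.09% ± 0.246 (SD, n = 4), a difference of -0.0134 percentage points (exact two-sided permutation over 70 assignments, p = 0.971, adjusted over 4 tests 0.971). For BCAS surgery the difference was -0.125 points (exact permutation p = 0.400, adjusted 0.762). Without control 1 these became 0.106 and -0.0241 points. Within depth sets 1 and 2 the TBI difference was -0.129 and 0.102 points, and the BCAS difference -0.188 and -0.0614 points. The smallest p this design allows is 0.0286.

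**Figure D4:**
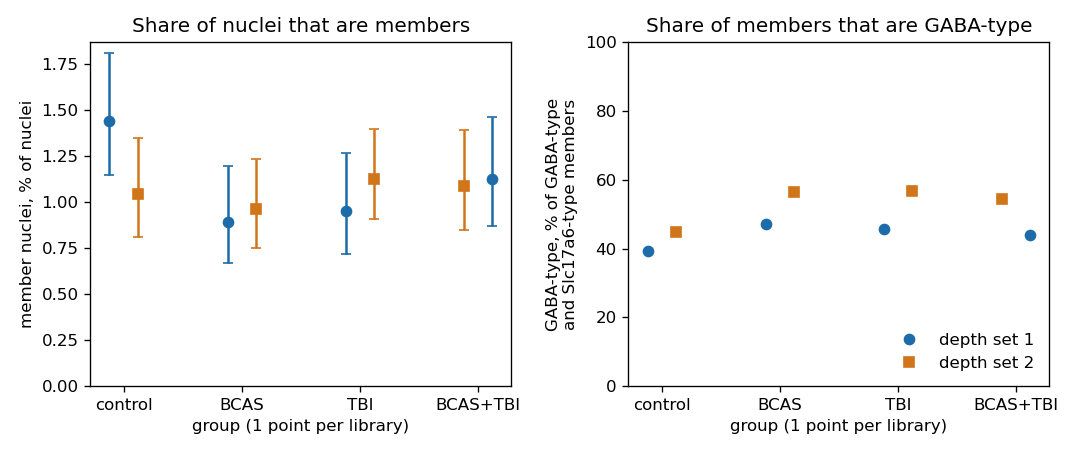
Left, member nuclei as a share of nuclei (%, axis from 0) in each of the 8 libraries, with 95% Wilson intervals; right, GABA-type members as a share of GABA-type and Slc17a6-type members (%). Points are libraries by group, and colour and shape give the depth set; control 1 has the highest member share (1.44%), and in each group the library of depth set 2 has the higher GABA-type share.

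The share of GABA-type among the 2 resolved classes was 39.3% and 44.7% in control libraries 1 and 2, 47.1% and 56.4% with BCAS, 45.8% and 56.8% with TBI, and 54.5% and 44.0% with BCAS+TBI. Depth set 1 libraries ran from 39.3% to 47.1% and depth set 2 from 44.7% to 56.8%. The difference for TBI surgery was 3.41 points (exact permutation p = 0.571, adjusted 0.762) and for BCAS surgery 3.85 points (p = 0.457, adjusted 0.762). Within depth sets 1 and 2 they were 1.74 and 5.08 points for TBI and 2.97 and 4.73 points for BCAS. Both turned negative when nuclei were thinned to 3000 UMIs (-15.3 and -1.94 points, exact permutation p = 0.229 and 0.914). Only 147 members were left after thinning, and the share by library then ran from 33.3% to 77.8%.

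In the summed members, 0 of 8115 genes passed in each of the 5 group comparisons (percent called 0, edgeR quasi-likelihood test, adjusted p under 0.05). These were TBI averaged over BCAS, BCAS averaged over TBI, their interaction, BCAS+TBI against TBI, and BCAS+TBI against control, and the last 2 share libraries. At an unadjusted p under 0.05 there were 104, 96, 139, 128 and 115 genes. With the depth set as a block there were 360, 350, 436, 404 and 400. The counts without the block fell below the 0.05 share of genes that chance alone gives. That fit was thus stricter than its threshold states, and its 0 calls do not show an absence of change. DESeq2, also without the block, called 0, 0, 0, 2 and 1.

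The genes with the smallest p values were endothelial in the BCAS+TBI comparisons. Flt1, a receptor for vascular growth factors, was at 2.79 and 5.15 CPM in control libraries, 3.74 and 1.79 with BCAS, 12.6 and 1.64 with TBI, and 79.4 and 380 with BCAS+TBI. Both BCAS+TBI libraries lay above all others (against control 5.60 ± 0.86 on the log2 scale, edgeR adjusted p = 0.171; against TBI 5.21 ± 0.83, adjusted p = 0.266). Slco1a4, an organic anion transporter of brain capillaries, followed at 46.3 and 226 CPM with BCAS+TBI and 0 to 9.45 CPM elsewhere. DESeq2 called Flt1 in both comparisons (adjusted p = 0.000141 and 0.000263).

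The endothelial marker list, which holds Flt1 itself, moved with this result. Flt1, Cldn5 and Pecam1 summed to 94.8 and 719 CPM in BCAS+TBI 1 and 2 and to 8.19 to 31.5 CPM in the other 6 libraries, with all 3 detected. In BCAS+TBI 2, 1 member of 29026 UMIs held 195 of the 197 endothelial UMIs and all 104 Flt1 UMIs of that library, and it was not marked by the doublet score. In BCAS+TBI 1, 2 members held all 43, and 1 of them was marked. An alternative, chosen after seeing these values, left out the 5 members that had at least 3 such UMIs. Flt1 then had 0 UMIs in both BCAS+TBI libraries and 1 to 3 elsewhere. Because Flt1 helped to choose those members, its fall was fixed in advance and tests nothing. Slco1a4, which was not used in that choice, had 0 UMIs in both BCAS+TBI libraries and 0 or 1 elsewhere. As it is also a gene of brain capillaries, its fall is no independent test. The smallest edgeR adjusted p in any of the 5 comparisons was then 0.9998.

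Sox2ot, the long noncoding RNA transcribed across Sox2, was at 399 and 369 CPM in control libraries 1 and 2, 397 and 432 with TBI, 281 and 301 with BCAS, and 203 and 182 with BCAS+TBI. The 4 BCAS and BCAS+TBI libraries were all below the 4 without BCAS surgery. Sox2ot was named for its small p among 8115 genes, which favours such a separation, so the separation is no further evidence. How many genes separate in this way is not given. The change of Sox2ot with BCAS averaged over TBI was -0.76 ± 0.19 (edgeR adjusted p = 0.999) and passed with the depth set as a block (adjusted p = 0.0148). With the stricter gate of 3 Baiap3 and 2 Resp18 UMIs, which 99 members met, BCAS+TBI against control turned from -0.998 to 0.095. Sox2ot also differed between the classes, at 486 CPM in GABA-type and 99.0 CPM in Slc17a6-type members, and the GABA-type share is given above; its part in the result was not tested.

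Other named genes did not pass either. Slc44a5, a choline transporter-like gene, was at 88.2 and 87.6 CPM with BCAS+TBI, 195 and 213 with TBI, and 148 to 165 in the other 4 libraries (against TBI -1.24 ± 0.28, adjusted p = 1). Sema3a, an axon guidance ligand, led the interaction. It was at 16.7 and 8.59 CPM in control libraries, 86.1 and 34.1 with BCAS, 50.4 and 32.8 with TBI, and 4.41 and 10.9 with BCAS+TBI, so that either surgery alone lay above control and the combination did not (-4.70 ± 0.92, adjusted p = 1; with the depth set as a block adjusted p = 0.00479). Socs2, a brake on cytokine and growth hormone signalling, had the same order at 8.37 and 13.7, 41.2 and 41.3, 34.7 and 26.2, and 11.02 and 0 CPM, and so had Meis1. Sema3a, Socs2 and Meis1 were named for the smallest interaction p values, and all had negative estimates. Their selection favours this order, so the genes do not back each other up. Acly, the enzyme that makes acetyl-CoA for lipid synthesis, was at 29.2 to 44.7 CPM in the 4 libraries without TBI surgery and 6.61 to 18.9 CPM in the 4 with it (-1.34 ± 0.39, adjusted p = 1). Ankfn1 was lower in the same way (-0.63). Both genes were named for their small p values, which favours a gap between the arms, so the gap adds no evidence. Sema3e and Itga8 were the others named for BCAS surgery (-1.52 and -1.85).

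**Figure D5:**
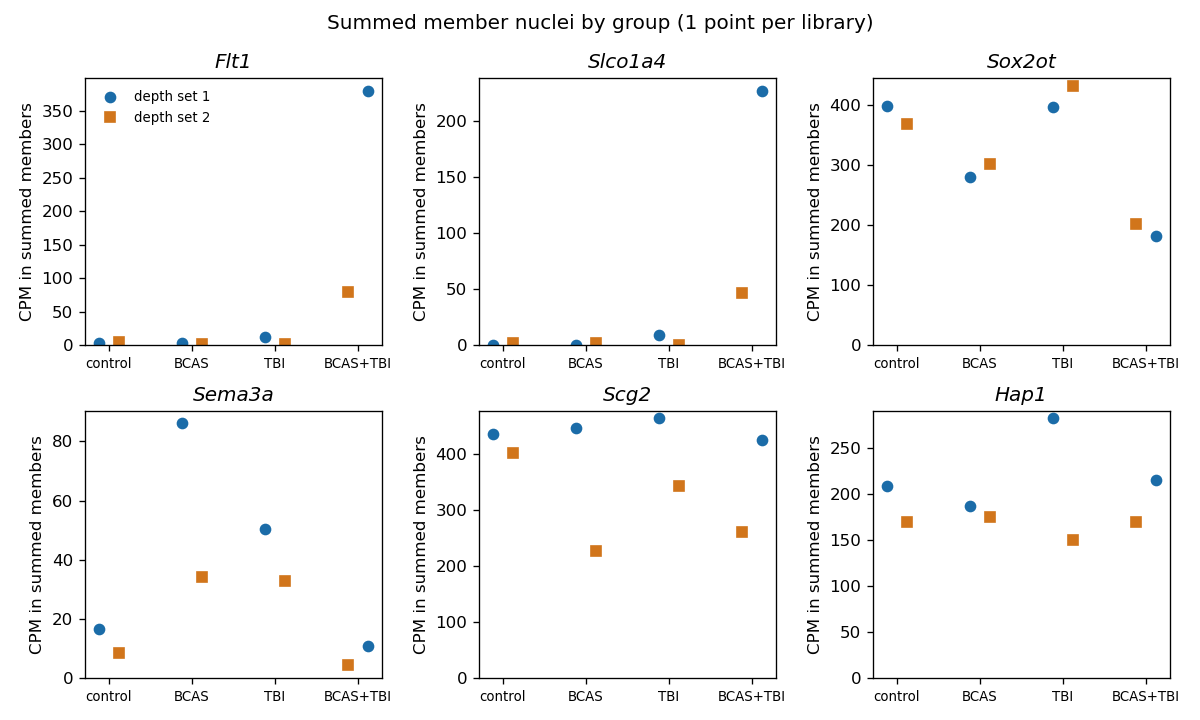
Level in the summed members (CPM, axes from 0) of 6 genes by group, 1 point per library, with colour and shape for the depth set. Flt1 and Slco1a4 are high in both BCAS+TBI libraries, Sox2ot is lower in the 4 libraries with BCAS surgery, Sema3a is higher with either surgery alone, and Scg2 and Hap1 overlap between groups.

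With the depth set as a block 1, 4, 2, 5 and 5 genes passed in the 5 comparisons (0.0123%, 0.0493%, 0.0246%, 0.0616% and 0.0616% of 8115, and 0.037% higher against TBI). Among them were peptide genes whose counts came from single nuclei. Pmch was called in 4 comparisons, with 180, 116 and 364 CPM in control 2, TBI 2 and BCAS+TBI 1 and at most 3.65 CPM in the other 5 libraries, which are the 3 nuclei described above. Sst and Npy were called lower with BCAS surgery, Sst being at 435 and 172 CPM in control libraries, 302 and 136 with TBI, 123 and 25.1 with BCAS and 37.5 and 285 with BCAS+TBI, and 11 nuclei held 64.3% of its UMIs. The other genes called were Sox2ot, Sema3a, Slc44a5, Flt1, Slco1a4, Tmsb4x and Hbb-bs, and those outside the naming rule are named after their values were seen.

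Genes named above from the class comparisons did not pass with surgery either. Scg2 was at 435 and 400 CPM in control libraries, 445 and 226 with BCAS, 463 and 342 with TBI, and 260 and 423 with BCAS+TBI, and each group overlapped the others. Hap1 ran from 151 to 284 CPM and Zdbf2 from 103 to 182 CPM over the 8 libraries. None of 18 vesicle genes, 23 imprinted genes, 12 hormone receptor genes, 16 neuropeptide genes and 8 injury response genes passed in any of the 5 comparisons. The 6 immediate early genes tested (Fos, Jun, Junb, Jund, Btg2 and Nr4a1) had positive estimates with TBI surgery, with a median log2 fold change of 0.96 against 0.00074 over all genes, and none passed. Their counts were 1 to 23 UMIs per library, and Nr4a1 was at 18.9 to 35.3 CPM with TBI surgery and 5.15 to 22.5 CPM without, which overlap.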

How the data were processed

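Single-nucleus 3′ libraries were deposited as count matrices, whole-number UMIs per gene and barcode, and per the file headers their software was Cell Ranger 7.0.0. The submitters' processing notes name builds GRCm38 and mm10 and the tool Seurat, and the filters behind the deposited barcodes are not given in the sources used here. Gene positions come from GENCODE M21, which held 99.7% of the 54232 feature IDs. Members and gene lists were chosen with earlier results of these data known, and the rule used measured counts, so Baiap3, Resp18 and the other gate genes are described and not tested.

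UMIs of members were summed per library and fitted over all 4 groups with edgeR 4.0.16 (R 4.3.3, limma 3.58.1; TMM, a filter of at least 10 counts, quasi-likelihood test, Benjamini-Hochberg over all genes tested). Class comparisons used the library as a block. Gate and class genes were left out of the counts of calls. Shares were compared by exact permutation. Doublets were scored with Scrublet in scanpy 1.11.5 and the top 6% of each library marked but kept. The fits were tested on simulated data. The group fit, for TBI averaged over BCAS, recovered 32% of 2-fold and 86% of 4-fold changes. The class fits recovered 64% to 90% of 2-fold and 100% of 4-fold changes. The simulated counts held no difference between depth sets, unlike the data, so the shares need not hold for the real group fit. Even in the simulation most 2-fold changes with surgery were missed. Alternatives were DESeq2 1.42.0, no filter, other gates and classes, depth limits and each library left out.

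Named genes were, for groups, up to 8 past adjusted p 0.05 without overlap, or else the 3 with the smallest p, and for classes the 10 highest and 10 lowest fold changes past adjusted p 0.05 with at least 50 CPM in the higher class, leaving out predicted and mitochondrial genes. Genes of the lists were named for their list. Same-numbered libraries did not deviate together in every pair over 8121 genes (r from -0.451 to 0.391), while libraries of the same depth set did in all 6 pairs (0.30 to 0.451). In control, BCAS and TBI the replicate number matches the depth set, and in BCAS+TBI it is swapped. Pairs without BCAS+TBI are thus the same in both pairings. The fit over groups has no depth term, and the fit with the depth set as a block is given beside it. The labels call samples biological replicates but name no animals, so p-values measure the spread between these libraries. Some genes are not reported here.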

Additional observations from a re-analysis of the deposited data

Results flagged for a closer look

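A single library lay far from the others of its arm in 2 of the 52 arms of 4 libraries tested (13 genes and shares), where chance alone marks about 1 in 20. Acly was at 6.61 CPM in BCAS+TBI 1, while the other 3 libraries with TBI surgery were at 18.02 to 18.9 CPM. Itga8 was at 9.45 CPM in TBI 1, while the other 3 libraries without BCAS surgery were at 33.5 to 37.8 CPM.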

How the results depend on the processing

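Counts of genes called in the 5 group comparisons (TBI, BCAS, interaction, BCAS+TBI against TBI and against control) moved from 0 to 7, 8, 9, 36 and 41 without a filter on low counts, and to 1, 4, 2, 5 and 5 with the depth set as a block. DESeq2 called 2 and 1 genes in the last 2, and the stricter gate 1 (Necab1) in the interaction. Leaving out 1 library gave 0 to 0 in the first 3, 0 to 11 against TBI and 0 to 18 against control. The 11 and 18 came without BCAS+TBI 1, and 1 call against control without TBI 1. With the replicate number as a block 0 genes were called in all 5, as without it. That number matches the depth set in control, BCAS and TBI but not in BCAS+TBI. Class calls rose without the filter to 103 (from 35), 1151 (from 733) and 1881 (from 1231), and ran from 26 to 39, 517 to 841 and 1019 to 1159 with 1 library left out.

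The TBI difference in member share turned to 0.102 points in depth set 2, 0.00858 with thinning and 0.0210 with the stricter gate, and ran from -0.0777 to 0.106 with 1 library left out, being 0.106 without control 1 and 0.0268 without TBI 1. The BCAS difference was 0.00945 with the stricter gate and -0.188 to -0.0241 with 1 library left out. The GABA-type share difference for TBI was -15.3 points with thinning and 0.882 to 6.59 with 1 library left out. For BCAS it was -1.94 with thinning, -12.7 with the stricter gate, -2.14 with a class rule of 1 UMI, and 1.39 to 7.22 with 1 library left out. Sox2ot against control turned to 0.095 with the stricter gate. The cause of these shifts was not tested. Of 829 alternatives for named class genes 813 kept direction and call and 16 lost the call. Thinning to 2000 UMIs moved the share of members with a UMI outside its interval for 32 of 42 peptide genes and left 10 inside. Low member counts per library limit the precision.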
